A study of Mus musculus with 23 samples.

Results

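Mouse embryonic fibroblasts on a 129/Sv background were compared with fibroblasts on a mixed 129/Sv and C57BL6 background. The 23 arrays of the series were divided by their strain label alone, which gave 14 arrays of the 129 background and 9 of the mixed background. All cells carried the H-Ras V12 oncogene from a retrovirus, and all had also received an adenovirus, with Cre recombinase or empty. The sample titles form 7 stems. LSL-25,26+Cre carries knock-in substitutions in the first transactivation domain of p53 and had 4 arrays of the 129 and 1 of the mixed background. LSL-53,54+Cre is changed in the second domain and had 1 of the 129 and 2 of the mixed background. LSL-QM+Cre is changed in both domains and had 2 and 1. LSL-WT+Cre, the wild-type knock-in after Cre, had 1 and 2, and LSL-WT+Emp, the same knock-in after the empty virus, also had 1 and 2. WT+Cre had 2 and 1. Null+Cre, without p53, had 3 arrays, all of the 129 background, so the difference between backgrounds rests on the 20 arrays of the 6 stems that hold both. LSL stands for a cassette that blocks transcription of the knock-in allele until Cre removes it. Ages of the embryos are not given in the sources used here.

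The labels limit what the mixed group stands for. They do not give the share of C57BL6 genome in any mixed line, nor whether arrays came from separate embryos, so p-values measure the spread between these arrays. The genotype label of the third WT+Cre array, which is mixed, names LSL-WT and differs from its title, and that of the fourth Null+Cre array adds the word knock-in. Background was also unevenly spread over the number in the titles: among arrays of number 2, 6 were 129 and 1 was mixed, while among those of number 3, 2 were 129 and 5 mixed. What that number marks is not given.

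An inbred strain is homozygous at almost every locus, so a variant near a gene that alters its transcription, splicing or RNA stability acts in all animals of that strain. Such a variant acts on its own chromosome copy, and only the gene beside it need differ. In an animal of mixed descent, each locus can hold both copies from one strain, both from the other, or one of each, so litters and lines may differ from one locus to the next. Targeted alleles have often been made in embryonic stem cells of 129 origin and then crossed towards C57BL/6, and for that reason strain and genotype can be entangled in knock-in studies.

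RNA was measured on Affymetrix oligonucleotide arrays, and values below are log2 of the RMA intensity unless a difference is named. Array medians ranged from 59.9 to 64.2 on the intensity scale, and precision is set by how few arrays there are. Xist, which coats the silenced X, exceeded 8 (log2) in 8 of the 14 129 arrays and 4 of the 9 mixed arrays, so both backgrounds held arrays with and without it. The label fibroblast was checked against marker genes: the mean log2 level of 25 tested matrix and fibroblast genes lay between 10.92 and 12.47 in 129 arrays and between 11.32 and 11.85 in mixed arrays. The means of marker lists of 10 other cell types lay lower, from 5.62 for erythroid to 8.28 for adipocyte markers over all arrays. Those of lymphocyte markers lay between 5.77 and 6.07, of epithelial markers between 6.30 and 7.57 and of neural and glial markers between 7.07 and 7.93.

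A small part of the genes tested passed the threshold for strain background, while 2001 had an unadjusted p under 0.05 (limma). A gene that misses the threshold is not shown to be alike in both backgrounds. Of 14789 autosomal genes, 333 (2.25%) differed between mixed and 129 arrays at an adjusted p under 0.05 by limma with stem as covariate, and 240 of them (1.62%) were higher and 93 (0.629%) lower in mixed arrays. The changes were mostly modest: the median size among the 333 genes was 0.60 on the log2 scale, and 76 genes (0.514% of those tested) differed by at least 2-fold, 62 upwards and 14 downwards. The median difference over all genes tested was 0.00. The LSL-WT+Cre and LSL-WT+Emp arrays of one title number deviated together, and with these pairs treated as a random block 107 genes (0.724%) passed, 83 higher and 24 lower in mixed arrays, all of them among the 333. The count also turned on single arrays: it was 105 without the 129 array of LSL-WT+Cre, 102 without that of LSL-WT+Emp, 198 without the mixed array of LSL-QM+Cre and 527 without the 129 array of LSL-53,54+Cre. Each of these arrays was the only one of its background in its stem. Leaving it out therefore also removed that stem from the strain comparison. Adjusted p-values below come from the fit over all 23 arrays, and the value with the LSL-WT block is added where it ends the call.

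In 12 genes (0.0811% of those tested) the 9 mixed arrays did not overlap with the 14 129 arrays, 9 lying wholly above (0.0609%) and 3 wholly below (0.0203%). Those above were Rpgrip1, Ang, Zfp874a, Zfp429, 1500015A07Rik, Prxl2c, Gm26782, Arhgap22 and Mief1. Of those above, Zfp874a, Zfp429 and Gm26782 passed the filter on low values only through mixed arrays. Those below were Supt16, Zfp991 and Frk. Chromosome 14 held 5 of these genes and chromosome 13 held 3, by the RefSeq gene table of GRCm38.p6. In 11 of them the call held with the LSL-WT block, and in Mief1, a mitochondrial outer membrane protein with a difference of 0.22 ± 0.06 (SE), it did not (adjusted p = 0.156 with the block, limma).

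Ang encodes angiogenin, a secreted ribonuclease of the RNase A family. Its log2 level ran from 4.97 over a median of 5.59 to 5.91 in the 14 129 arrays and from 8.67 over 9.14 to 10.41 in the 9 mixed arrays. The lowest mixed array thus lay well above the highest 129 array, whatever its p53 genotype. The difference was 3.76 ± 0.17 (SE, limma, adjusted p = 1.63e-10), a 13.6-fold higher level in mixed arrays. The p53 difference of Ang, wild-type stems minus null stems, was 0.34 ± 0.20 and did not pass (adjusted p = 0.256, limma). All 3 probe sets of Ang were higher in mixed arrays, by 3.76, 3.58 and 0.89. The related ribonuclease genes beside it did not follow: Rnase4 differed by 0.06 ± 0.16, Rnase1 by -0.03 ± 0.10, Ang2 by -0.01 ± 0.07 and Ang4 by -0.00 ± 0.06, none past the threshold.

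Rpgrip1 encodes a protein of the photoreceptor connecting cilium that anchors RPGR. Its level ran from 6.43 over a median of 7.12 to 8.10 in 129 arrays and from 10.34 over 11.25 to 12.14 in mixed arrays. Every mixed array lay above every 129 array, and the difference was 3.94 ± 0.28 (SE, limma, adjusted p = 1.88e-07), or 15.4-fold. Its p53 difference was -0.73 ± 0.33 (adjusted p = 0.124, limma). A second Rpgrip1 probe set was near the lower end of the array's range in both backgrounds, at mean levels of 4.67 and 4.58, and differed by -0.08 ± 0.07.

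The next tested gene on chromosome 14, Supt16, went the other way. It encodes the larger subunit of FACT, the histone chaperone that helps polymerases through nucleosomes. Supt16 ran from 11.30 over 11.77 to 12.33 in 129 arrays and from 9.69 over 10.69 to 11.19 in mixed arrays. The mixed arrays again lay wholly apart, below, and the difference was -1.18 ± 0.18 (SE, limma, adjusted p = 0.00264). Its second probe set differed by -1.64 ± 0.30. Over the 23 arrays, after each stem's mean was removed, Rpgrip1 and Supt16 correlated at r = -0.93, a description that includes the difference between backgrounds. Hnrnpc on one side of the pair and Chd8 on the other differed by 0.06 ± 0.07 and -0.23 ± 0.08, neither past the threshold.

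The 300 bases around the annotated starts of Ang and Rpgrip1 are shown because these genes had the highest moderated statistics. Within the mixed arrays their levels did not rank alike. Ang was highest in LSL-53,54+Cre 3, at 10.41, where Rpgrip1 was at 10.36, and Rpgrip1 in LSL-WT+Emp 1, at 12.14, where Ang was at 9.08. They come from RefSeq for GRCm38.p6, the C57BL/6J reference, most of them ahead of the start. Ang lies at chr14:51090827-51091126 and Rpgrip1 at chr14:52110653-52110952, both on the plus strand. Capitals mark 3 core promoter motifs on either strand: TATAAA, held by 13.6% of all 32851 promoters of this length, CCAAT, held by 37.4%, and GGGCGG, held by 35.7%.
Ang: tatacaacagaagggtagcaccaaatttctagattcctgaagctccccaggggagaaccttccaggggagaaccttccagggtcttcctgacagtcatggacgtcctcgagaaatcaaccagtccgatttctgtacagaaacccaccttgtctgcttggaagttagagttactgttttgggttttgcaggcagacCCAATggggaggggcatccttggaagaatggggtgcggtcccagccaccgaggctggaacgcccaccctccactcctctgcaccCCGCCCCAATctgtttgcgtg
Rpgrip1: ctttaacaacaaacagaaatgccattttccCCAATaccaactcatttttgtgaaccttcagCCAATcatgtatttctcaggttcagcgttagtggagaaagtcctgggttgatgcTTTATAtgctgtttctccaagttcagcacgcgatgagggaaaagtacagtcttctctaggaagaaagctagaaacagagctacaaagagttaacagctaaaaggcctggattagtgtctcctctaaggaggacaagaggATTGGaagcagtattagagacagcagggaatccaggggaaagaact
The Ang promoter held CCAAT at 2 places and GGGCGG, read on the other strand, at 1, where it shares a base with a CCAAT. The Rpgrip1 promoter held CCAAT at 3 places, the last of them read on the other strand, and TATAAA at 1, also read on the other strand. A match is a description of these letters only, and the 129/Sv sequence is not used here, so differences between the strains at these starts were not examined.

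**Figure D1:**
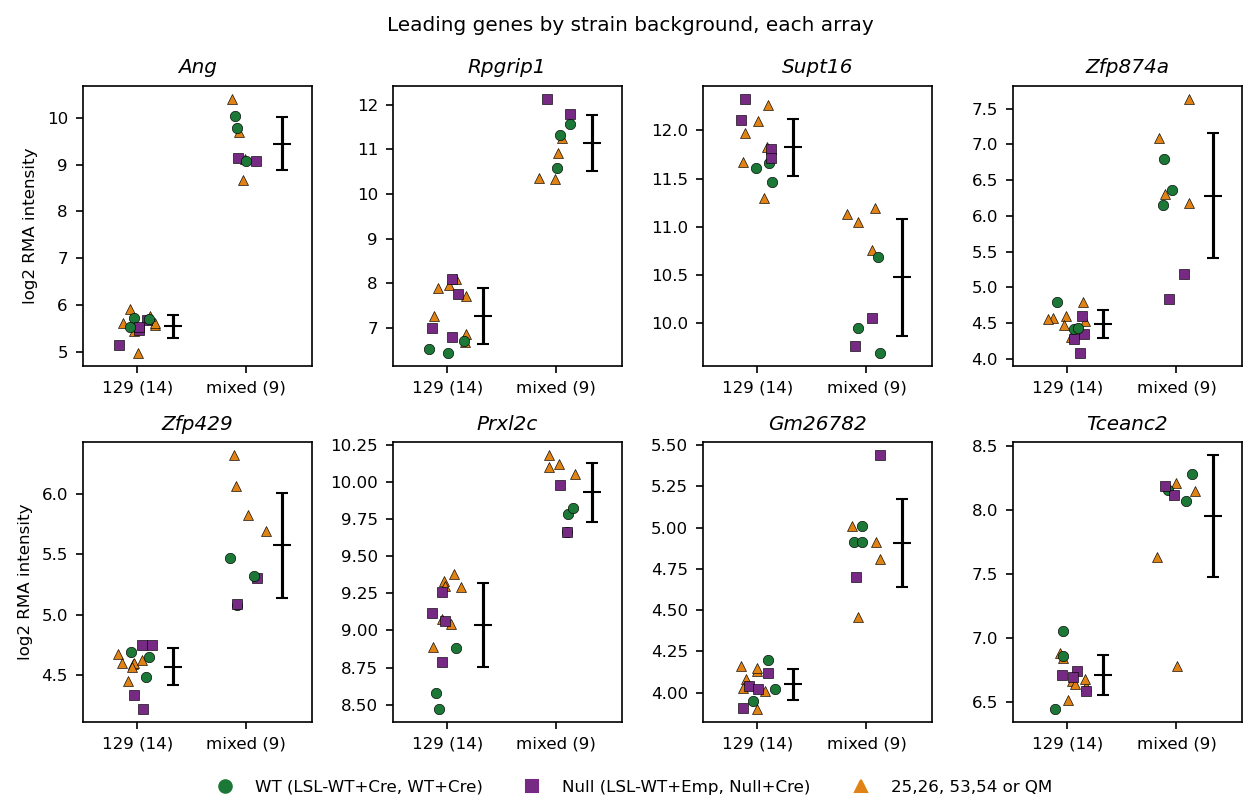
Log2 RMA intensity (vertical axes) of 8 genes in each of the 14 129 and 9 mixed arrays, with points coloured and shaped by p53 class and, to the right of each group, the mean with its SD. In Ang, Rpgrip1, Supt16, Zfp874a, Zfp429, Prxl2c and Gm26782 the backgrounds do not overlap, while in Tceanc2 the mixed array of LSL-25,26+Cre lies among the 129 arrays at 6.78.

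A pair of zinc finger genes on chromosome 13 rose together in mixed arrays. Zfp429 and Zfp874a belong to a cluster of KRAB zinc finger genes, a family of repressors that bind DNA and are known to differ in number and sequence between mouse strains. Zfp874a ran from 4.08 over 4.50 to 4.79 in 129 arrays and from 4.83 over 6.31 to 7.64 in mixed arrays. Zfp429 ran from 4.22 over 4.60 to 4.75 and from 5.08 over 5.47 to 6.32. Both sets of mixed arrays lay wholly above, with the lowest Zfp874a values of the mixed group in the LSL-WT+Emp arrays. The differences were 1.84 ± 0.18 for Zfp874a (limma, adjusted p = 2.03e-05) and 1.09 ± 0.11 for Zfp429 (limma, adjusted p = 2.45e-05). Zfp874a also passed for p53, with a p53 difference of 0.63 ± 0.21 (limma, adjusted p = 0.0335). Zfp429 did not, at 0.03 ± 0.13 (limma, adjusted p = 0.92). The stem-centred levels of the pair correlated at r = 0.91 over 23 arrays. In 129 arrays both genes lay below or near the filter level of 4.79. RNA of near-identical copies cannot be told apart on an array, so a probe set of this family may report more than one gene.

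Among the 5 tested genes on either side of Zfp874a, Rsl1 was also called. Rsl1, the regulator of sex-limited protein in the liver, was higher by 0.59 ± 0.12 (limma, adjusted p = 0.0144, and 0.0564 without the mixed array of LSL-QM+Cre). Zfp458, Zfp595 and Zfp953, which lie between Rsl1 and Zfp429, differed by 0.27, -0.03 and 0.07, and Zfp58, Zfp87, Zfp748, Zfp729b and Zfp729a on the far side by -0.11 to -0.32, none past the threshold. A list of 36 tested zinc finger genes of this kind, which does not hold Zfp429, had 2 past the threshold, Zfp874a and Rsl1, beside 2.25% of all genes. Zfp874a passed the filter on low values only through mixed arrays, so nothing is read from this count or its direction. The median difference of the list was -0.01 against 0.00 over all genes tested.

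The promoters of Zfp429 and Zfp874a are shown because the genes are neighbours that moved together. Zfp429 lies at chr13:67399718-67400017 and Zfp874a at chr13:67451575-67451874, both on the minus strand, from RefSeq for GRCm38.p6. Capitals mark the longest ungapped stretch that both hold with at most 2 mismatches, TCGCACAGACTTNTGGGANATGTAGTC, of 27 letters.
Zfp429: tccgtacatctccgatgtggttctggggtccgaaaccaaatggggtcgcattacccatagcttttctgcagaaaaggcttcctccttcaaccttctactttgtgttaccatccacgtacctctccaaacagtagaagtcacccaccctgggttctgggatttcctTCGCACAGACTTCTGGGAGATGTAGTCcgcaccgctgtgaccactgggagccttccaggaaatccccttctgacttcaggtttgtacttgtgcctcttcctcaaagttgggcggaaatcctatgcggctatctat
Zfp874a: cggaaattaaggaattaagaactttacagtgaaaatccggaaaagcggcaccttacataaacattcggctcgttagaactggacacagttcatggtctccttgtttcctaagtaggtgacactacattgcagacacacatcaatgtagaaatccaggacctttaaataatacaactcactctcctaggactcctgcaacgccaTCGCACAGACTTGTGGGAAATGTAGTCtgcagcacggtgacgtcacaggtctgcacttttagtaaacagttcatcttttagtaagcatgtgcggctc
Searched on both strands, this stretch occurs in 6 of the 32851 promoters, or 0.0183%, and all 6 are on chromosome 13: Rsl1, F630042J09Rik, Zfp456, Zfp429, Zfp874a and Zfp874b. Rsl1, Zfp429 and Zfp874a were tested and are called above. The stretch was defined from Zfp429 and Zfp874a, and both passed the filter on low values only through mixed arrays, with 0 of 14 129 arrays and 9 of 9 mixed arrays above it, so nothing is read from the number called. Rsl1 was above the filter level in 5 129 and 8 mixed arrays. Zfp874b did not pass the filter, and the other two have no tested value here. The match describes these letters in the C57BL/6J reference and no more.

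Of the remaining genes whose backgrounds did not overlap, Prxl2c, a peroxiredoxin-like protein, was the most sharply separated. It ran from 8.47 over 9.07 to 9.38 in 129 arrays and from 9.66 over 9.98 to 10.18 in mixed arrays. All mixed arrays were higher, and the difference was 0.90 ± 0.09 (limma, adjusted p = 2.45e-05). Its other probe set went against it, with a difference of -0.48 ± 0.09 (adjusted p = 0.00947 over all probe sets, limma), so the direction of Prxl2c depends on which probe set is read. Gm26782 was higher by 0.78 ± 0.09, at levels from 4.46 to 5.44 in mixed arrays that lie around the filter level. Its 129 arrays lay between 3.90 and 4.20, all below the filter level of 4.79, so it was tested only through its mixed arrays. Arhgap22, a GTPase-activating protein for Rac, was higher by 0.56 ± 0.09. Frk, a Src-family tyrosine kinase, was lower by -0.51 ± 0.09 on the log2 scale, and Zfp991 by -0.83 ± 0.15.

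Several of the largest increases were in genes with known roles. Nppb, the precursor of the natriuretic peptide BNP, ran from 5.59 over 7.43 to 9.15 in 129 arrays and from 8.42 over 10.33 to 11.40 in mixed arrays. Only the mixed array of LSL-25,26+Cre lay within the 129 range, and the difference was 2.67 ± 0.45 (limma, adjusted p = 0.00386). Ednrb, the endothelin B receptor, ran from 5.19 over 6.87 to 7.44 and from 6.96 over 8.28 to 8.70, a difference of 1.77 ± 0.31 (limma, adjusted p = 0.00461). Again 1 mixed array fell within the 129 range. Gfra1, the co-receptor for GDNF, ran from 7.05 over 7.68 to 8.15 and from 8.10 over 9.99 to 10.10. Its mixed arrays formed an upper set of 5 near 10 in the LSL-WT and LSL-QM arrays and a lower set nearer the 129 arrays, and the difference was 1.67 ± 0.22 (limma, adjusted p = 0.000588). Trpa1, a cation channel opened by irritants, was higher by 1.69 ± 0.28 (limma, adjusted p = 0.00354).

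The other large increases included enzymes and less studied transcripts. Amacr, a racemase of branched-chain fatty acid oxidation, stayed between 4.44 and 4.97 in all 129 arrays and ran from 4.47 over 7.27 to 8.28 in mixed arrays. The 2 mixed arrays of LSL-53,54+Cre sat among the 129 arrays and the other 7 above them, and the difference was 2.02 ± 0.32 (limma, adjusted p = 0.00284). E030030I06Rik differed by 1.76 ± 0.22 and Ankrd33b by 1.78 ± 0.29. Usp18, the protease that removes ISG15 from proteins, was higher by 1.74 ± 0.41 (limma, adjusted p = 0.0312, and 0.115 with the LSL-WT block), and all 9 of its mixed arrays lay within the 129 range. Ankrd37 was higher by 1.68 ± 0.37 (limma, adjusted p = 0.0202, and 0.0733 with the block). Tceanc2, with a domain like that of an elongation factor, was higher by 1.16 ± 0.14 (limma, adjusted p = 0.0002).

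The largest decrease was in Cap1, which encodes an actin-binding protein that speeds filament turnover. Its level ran from 8.21 over 13.02 to 13.57 in 129 arrays and from 8.28 over 9.62 to 13.06 in mixed arrays. The groups overlapped at both ends: Null+Cre array 2, of the 129 background, was at 8.21 while the other 129 arrays were at 12.02 or above, and the mixed arrays LSL-25,26+Cre 3 and LSL-53,54+Cre 2 were at 13.06 and 12.66. The difference was -3.03 ± 0.64 (limma, adjusted p = 0.0162, and 0.0559 with the LSL-WT block). A second Cap1 probe set differed by -3.16 ± 0.65. Without the third WT+Cre array, whose genotype label differs from its title, or without either 129 array of LSL-WT, Cap1 did not pass, and the highest adjusted p of these fits was 0.0813 (limma).

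Further large decreases follow. Elavl2, a neuronal RNA-binding protein, ran from 6.82 over 7.78 to 8.90 in 129 arrays and from 5.05 over 5.68 to 7.38 in mixed arrays, a difference of -2.13 ± 0.39 (limma, adjusted p = 0.00636). Lrrn1, a leucine-rich repeat membrane protein, differed by -2.27 ± 0.54 (limma, adjusted p = 0.0305, and 0.132 with the block). Rims2, which acts at synaptic release sites, differed by -1.35 ± 0.22 (limma, adjusted p = 0.00336). The neural and glial marker list had 0 of its 10 tested genes past the threshold, with a median difference of 0.01. Sdc4, the heparan sulfate proteoglycan syndecan 4, differed by -1.65 ± 0.34 (limma, adjusted p = 0.015, and 0.0561 with the block), but its other probe set by 0.97 ± 0.34, so its direction is uncertain.

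Olr1, a scavenger receptor for oxidised LDL, ran from 6.38 over 8.07 to 10.12 in 129 arrays and from 5.11 over 6.29 to 6.57 in mixed arrays, and 1 mixed array lay within the 129 range. Its difference was -1.59 ± 0.27 (limma, adjusted p = 0.00386). Cd200, a surface ligand that restrains myeloid cells, and Sema5a, a guidance protein, differed by -1.42 ± 0.34 and -1.45 ± 0.37, and neither call held with the LSL-WT block (adjusted p = 0.127 and 0.147, limma). Mtss1, which bends membranes at actin-rich sites, differed by -1.17 ± 0.18, and Nid2, a basement membrane nidogen, by -1.09 ± 0.20. Both of these calls held with the LSL-WT block (adjusted p = 0.0137 and 0.0422, limma).

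The mixed arrays were not alike. In many of the largest differences they fell into a set at the 129 level and a set away from it, and which arrays made up each set changed from gene to gene. For Lrrn1 the mixed arrays LSL-25,26+Cre 3, LSL-53,54+Cre 2 and LSL-QM+Cre 1 were at 9.13, 7.84 and 8.67, within the 129 range, while the other 6 were between 4.51 and 5.05. For Elavl2 the arrays at the 129 level were LSL-25,26+Cre 3 and LSL-53,54+Cre 2, as for Cap1. For Amacr they were both arrays of LSL-53,54+Cre. In Tceanc2 it was LSL-25,26+Cre 3 alone, and in E030030I06Rik LSL-53,54+Cre 2 alone, at 4.39. Cap1, Elavl2 and Tceanc2 are on chromosome 4, Lrrn1 on 6, E030030I06Rik on 10 and Amacr on 15, and the genotype at each locus was not measured.

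The mixed LSL-WT arrays came in pairs with one title number, after Cre and after the empty virus, and the members of a pair fell on the same side in these genes. Lrrn1 was at 4.51 and 4.57 in the pair of number 1 and at 4.67 and 4.58 in that of number 3, while the 129 pair of number 2 was at 8.69 and 9.48. Over the 333 genes, both arrays of a pair were inside the 129 range, or both outside it, in 72.1% of genes for number 1 and 76.6% for number 3. Mixed LSL-WT arrays of different numbers did so in 68.2% and 69.1% of genes across the virus treatments and in 78.1% and 80.2% within one treatment, so the pairs did not stand apart by this count. Whether a pair came from one embryo is not given in the labels.

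Counted over the 333 genes, each mixed array lay inside the 129 range for a large part of them. The share was lowest in LSL-WT+Cre 1, at 34.5%, and highest in LSL-53,54+Cre 2, at 68.2%. The arrays of LSL-25,26+Cre and LSL-53,54+Cre, at 53.2% to 68.2%, and WT+Cre 3, at 52.6%, were closer to 129 by this count than the LSL-WT and LSL-QM arrays, at 34.5% to 40.2%. The 333 genes were chosen on these same arrays, so the shares describe them and carry no test. Over the 107 genes kept with the LSL-WT block the order differed: LSL-QM+Cre 1 was lowest at 11.2%, LSL-WT+Cre 1 was at 24.3%, WT+Cre 3 at 34.6% and LSL-53,54+Cre 2 highest at 45.8%. In the spread around the fit, the median ratio of the mixed to the 129 residual SD was 0.89 over all genes and 1.04 over the 333.

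**Figure D2:**
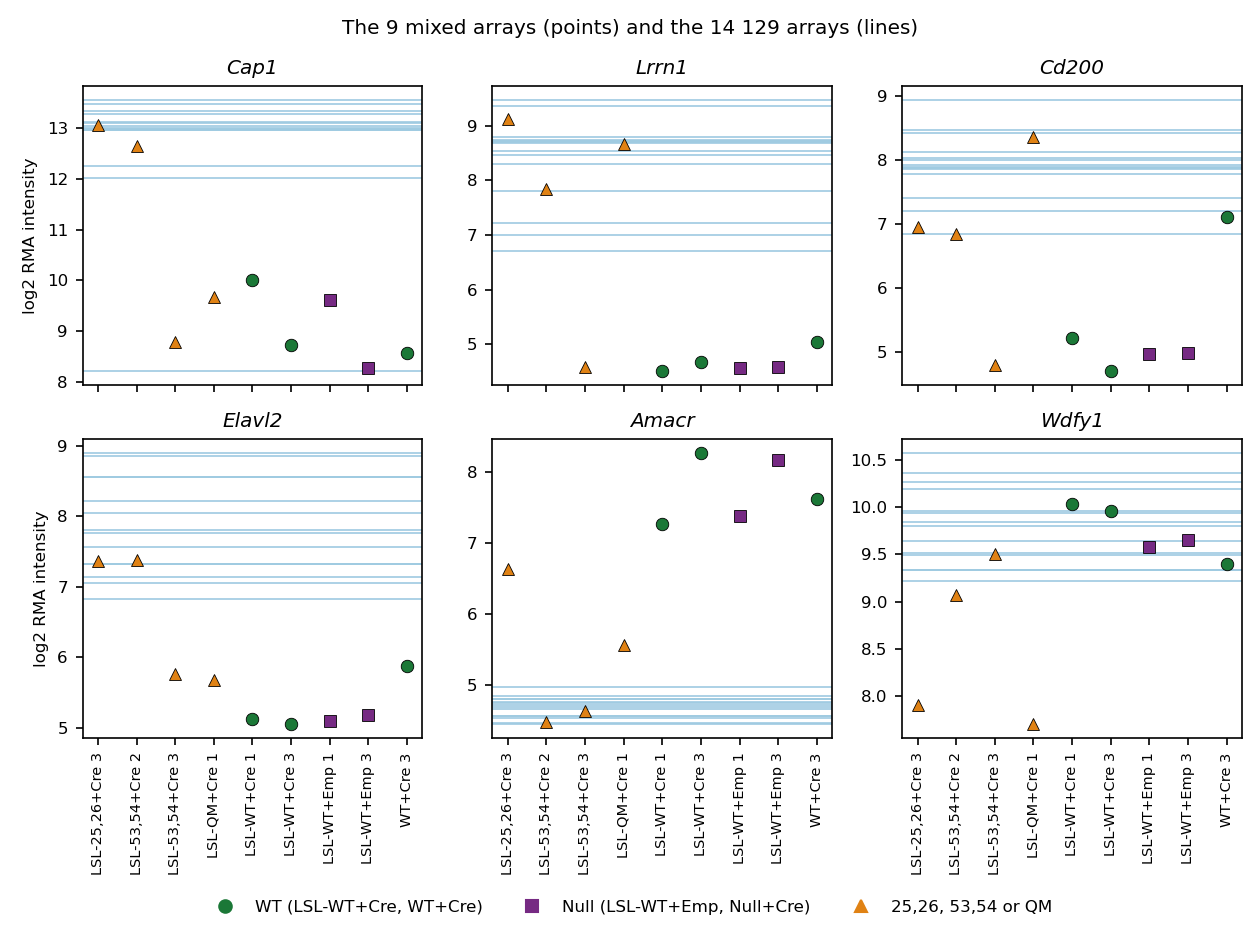
Log2 RMA intensity (vertical axes) of 6 genes in each of the 9 mixed arrays (points, named below), with the levels of the 14 129 arrays drawn as horizontal lines. In Lrrn1, Cd200 and Elavl2 some mixed arrays lie among the lines and others below them, in Cap1 the lower mixed arrays lie between the main band of lines and a single line at 8.21, and LSL-25,26+Cre 3 and LSL-53,54+Cre 2 are on the upper side in each of these 4, while Amacr has both LSL-53,54+Cre arrays among the lines and the rest above.

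Most genes called for strain did not pass for p53. In the same fit, 3721 genes (25.2%) differed between wild-type stems (LSL-WT+Cre and WT+Cre) and null stems (LSL-WT+Emp and Null+Cre), 1795 higher and 1926 lower with wild-type p53. Of the 333 strain genes, 226 did not pass for p53, and 107 did, which is 32.1% of them against 25.2% of all genes. Among the genes past both thresholds (0.724% of those tested), 31 were higher in mixed arrays and higher with p53, 50 higher in mixed and lower with p53, 15 lower and higher, and 11 lower in both. For 267 of the 333 genes the strain difference was larger in size than the p53 difference, which the choice of genes by their strain difference favours. A p53 difference that misses the threshold does not show that p53 left a gene alone.

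The strain difference itself differed between wild-type and other stems in 5 genes (0.0338%), Aif1l, Enpp4, Hoatz, Ivl and Pdk4, by an interaction term in limma. At an unadjusted p under 0.05 there were 1310. With the LSL-WT arrays as a block 675 genes passed, these 5 among them.

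**Figure D3:**
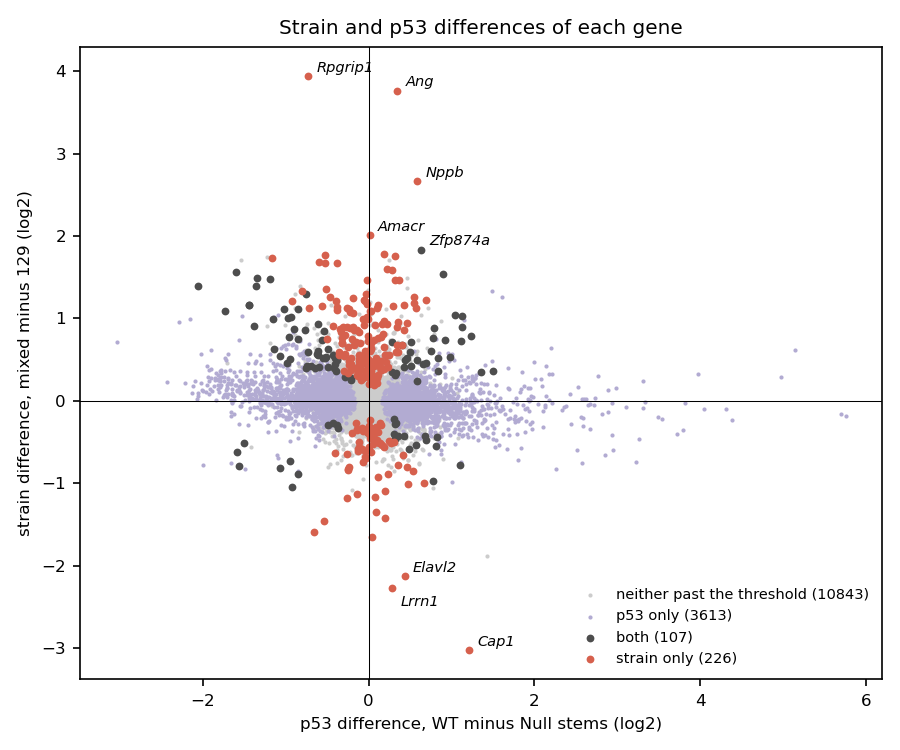
Strain difference (mixed minus 129, log2, vertical axis) against p53 difference (wild-type minus null stems, log2, horizontal axis) for the 14789 autosomal genes tested, coloured by which difference passed. Ang and Rpgrip1 stand at the top near a p53 difference of 0, and most genes with p53 differences beyond 2 lie near a strain difference of 0.

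In lists of genes known to respond to p53, the share called for strain was near the 2.25% of all genes. Of 54 tested p53 targets in 3 lists (cell cycle arrest and feedback, apoptosis, and repair and redox), 1 passed for strain and 41 for p53. The 1 strain call was Sfn, the arrest protein 14-3-3 sigma, which was higher in mixed arrays by 0.47 ± 0.11 (limma, adjusted p = 0.0304, and up to 0.105 with 1 array left out). The median strain differences of the 3 lists were -0.03, -0.10 and 0.02, beside p53 medians of 1.62, 1.24 and 0.39. Of 65 genes of mitosis and DNA replication, 0 passed for strain by limma and 62 for p53, and over all genes 2001 had an unadjusted strain p under 0.05. In the mitosis list 32 of 34 genes had a positive strain difference, with a median of 0.20, and none was called.

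The interferon-response genes that passed were all higher in mixed arrays. Of 26 tested, 5 were called, beside 2.25% of all genes, and 21 had a positive difference, with a median of 0.42 against 0.00 over all genes. They were Usp18, Ifit1 at 1.40 ± 0.34, Ifi27 at 1.35 ± 0.29, the double-stranded RNA sensor Ifih1 at 1.16 ± 0.27 and tetherin, Bst2, at 1.11 ± 0.25. None of the 5 passed with the LSL-WT block. The levels overlapped throughout: the list's mean log2 level lay between 6.61 and 9.08 in 129 arrays and between 7.19 and 8.16 in mixed arrays. Usp18 was highest in the 129 array Null+Cre 2, at 10.24, and this stem has no mixed array. The list also moved with p53, with a median p53 difference of -0.65 and 12 of 26 genes past that threshold. Ifih1 passed for p53 with a difference of -1.44 ± 0.32 (limma, adjusted p = 0.00236), while Usp18, Ifi27 and Bst2 did not.

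Other immune lists are given beside the same 2.25%. Nlrc5, the transactivator of class I genes, was the 1 call among 15 antigen presentation genes, at 0.60 ± 0.12 (limma, adjusted p = 0.0138, and at most 0.067 without either 129 array of LSL-WT). Nlrc5 also passed for p53, with a larger difference of 0.75 ± 0.15 (limma, adjusted p = 0.000726). Among 14 tested p200 and guanylate-binding genes there was no strain call, with a median of 0.49. Casp4, the caspase that senses lipopolysaccharide in the cytosol, and Pycard, the inflammasome adaptor ASC, were the 2 calls of 12 in the list of TRIM, NLR and caspase genes, at 0.91 ± 0.21 and 0.52 ± 0.12, and neither held with the block (adjusted p = 0.137 and 0.197, limma).

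A list of genes known to vary between inbred mouse strains was checked gene by gene. Of 20 tested, 6 were called, beside 2.25% of all genes, 3 higher and 3 lower in mixed arrays. With the LSL-WT block 3 passed, beside 0.724%. Fv1, which restricts retroviral capsids, ran from 7.21 over 7.80 to 8.16 in 129 arrays and from 5.96 over 6.69 to 7.24 in mixed arrays, with 1 mixed array in the 129 range. It was lower by -1.12 ± 0.18 (limma, adjusted p = 0.0032). Wdfy1, an adaptor of endosomal receptors, differed by -0.99 ± 0.21 (limma, adjusted p = 0.0153), with LSL-25,26+Cre 3 and LSL-QM+Cre 1 far below the rest, and it missed the threshold without either of them (highest adjusted p = 0.0598). Apobec3, a cytidine deaminase that acts on retroviral DNA, differed by -0.69 ± 0.15 (limma, adjusted p = 0.0199, and 0.0813 with the block). Gas5, a host transcript of small nucleolar RNAs, was higher by 0.40 ± 0.08 and missed the threshold without the 129 array of LSL-WT+Cre (adjusted p = 0.0507, limma). Casp4 and Bst2, above, complete the 6.

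Other members of that list did not pass. Nnt, the mitochondrial transhydrogenase that C57BL/6J mice carry with a deletion, differed by -0.02 ± 0.15, with levels between 9.39 and 10.65 in mixed arrays and between 9.64 and 10.56 in 129 arrays. No mixed array stood apart there. Ifi202b, which differs between inbred strains in its expression, differed by -0.12 ± 0.19. For Glo1, glyoxalase 1, the probe set with the highest mean differed by -0.63 ± 0.18 and missed the threshold (adjusted p = 0.0743, limma), while 2 others differed by -0.72 ± 0.12 and -0.65 ± 0.16 and passed over all probe sets. Gbp2b differed by -0.84 ± 0.22 (adjusted p = 0.0542, limma).

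The remaining lists gave few calls, to be read beside the background of 2.25%. There were 2 calls among 16 cholesterol synthesis genes, Cyp51 and Dhcr7, both higher at 0.41 ± 0.10 and 0.40 ± 0.10, neither with the block (adjusted p = 0.157 and 0.128, limma). Both also passed for p53, with larger differences of -0.59 ± 0.11 and -0.64 ± 0.11 (adjusted p = 0.000655 and 0.000326, limma). There was 1 call among 25 matrix genes, the PDGF receptor Pdgfra at 0.91 ± 0.18 (adjusted p = 0.0129, and 0.132 with the block, limma). Pdgfra also passed for p53, with a larger difference of -1.39 ± 0.22 (adjusted p = 0.00011, limma). Another 1 call came among 29 detoxification genes, the steroid dehydrogenase Akr1c18 at 1.25 ± 0.26 (adjusted p = 0.0144, and 0.0698 with the block, limma). Contractile, secretory senescence, imprinted and Hox genes gave none. Of 78 tested markers of 10 other cell types, 2 passed: Cdh1, the epithelial cadherin, at 1.23 ± 0.30 (limma, adjusted p = 0.0362, 0.143 with the block, and up to 0.188 with 1 array left out), and Ednrb, in the melanocyte list. The log2 summed intensity of the epithelial markers lay between 11.04 and 12.92 in 129 and between 11.99 and 12.78 in mixed arrays. The mean log2 level of the melanocyte markers lay between 5.65 and 6.27 and between 5.83 and 6.29. In bulk RNA more cells of a type and more RNA per cell cannot be told apart, and the part of these markers in the other differences was not tested.

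Called genes were unevenly spread over the chromosomes. The share called was highest on chromosome 15, at 4.29% of 629 tested genes, and chromosome 14, at 4.26% of 517, and lowest on chromosome 11, at 0.883% of 1246, beside 2.25% over all. With the LSL-WT block the highest shares were 2.14% on chromosome 4 and 1.93% on chromosome 14, while that of chromosome 15 was 0.636%. Of the 332 called genes with a position, 117 (35.2%) had another called gene within 5 tested genes on either side, beside 2739 of 14686 (18.7%) of all tested genes with a position.

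**Figure D4:**
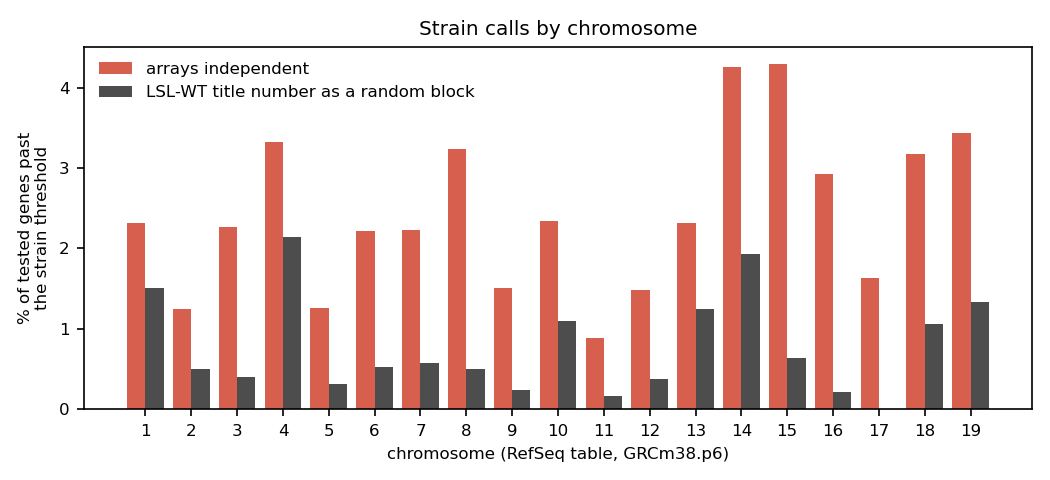
Percent of tested genes past the strain threshold (vertical axis, from 0) on each autosome, for all arrays taken as independent (red) and with the LSL-WT title number as a random block (grey). Chromosomes 14 and 15 have the highest red bars at 4.26% and 4.29%, and with the block chromosome 4 is highest at 2.14%.

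In 17 cases the called genes were next to each other, among 14686 tested genes with a position. How many such pairs the share called alone would give was not worked out. On chromosome 6, Mgp, an inhibitor of calcification, and Arhgdib were both higher, by 1.54 ± 0.26 and 0.71 ± 0.07. Arhgdib ran from 11.97 over 12.52 to 12.83 in 129 arrays and from 12.64 over 13.06 to 13.56 in mixed arrays, with 2 mixed arrays in the 129 range. Arhgdib also passed for p53, with a p53 difference of 0.28 ± 0.09 (limma, adjusted p = 0.0243). On chromosome 19, Entpd1, the ectonucleotidase CD39, and Tctn3, a protein of the ciliary transition zone, were higher by 1.59 ± 0.28 and 0.54 ± 0.08, and their stem-centred levels correlated at r = 0.91. On chromosome 8, Neto2 and Itfg1 were both higher, by 1.02 ± 0.19 and 0.38 ± 0.08, the second not with the block (adjusted p = 0.0682, limma). In 3 pairs the neighbours differed in opposite directions: Rpgrip1 with Supt16, Stard6 at 0.56 ± 0.10 with Poli at -0.60 ± 0.14, and Zfp36 at 0.83 ± 0.21 with Med29 at -0.51 ± 0.11. Poli, the translesion polymerase iota, did not pass with the block (adjusted p = 0.12, limma), nor did Zfp36 and Med29 (0.197 and 0.0896). Without strand information for each probe set, overlapping neighbours may share signal, and this was not examined.

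**Figure D5:**
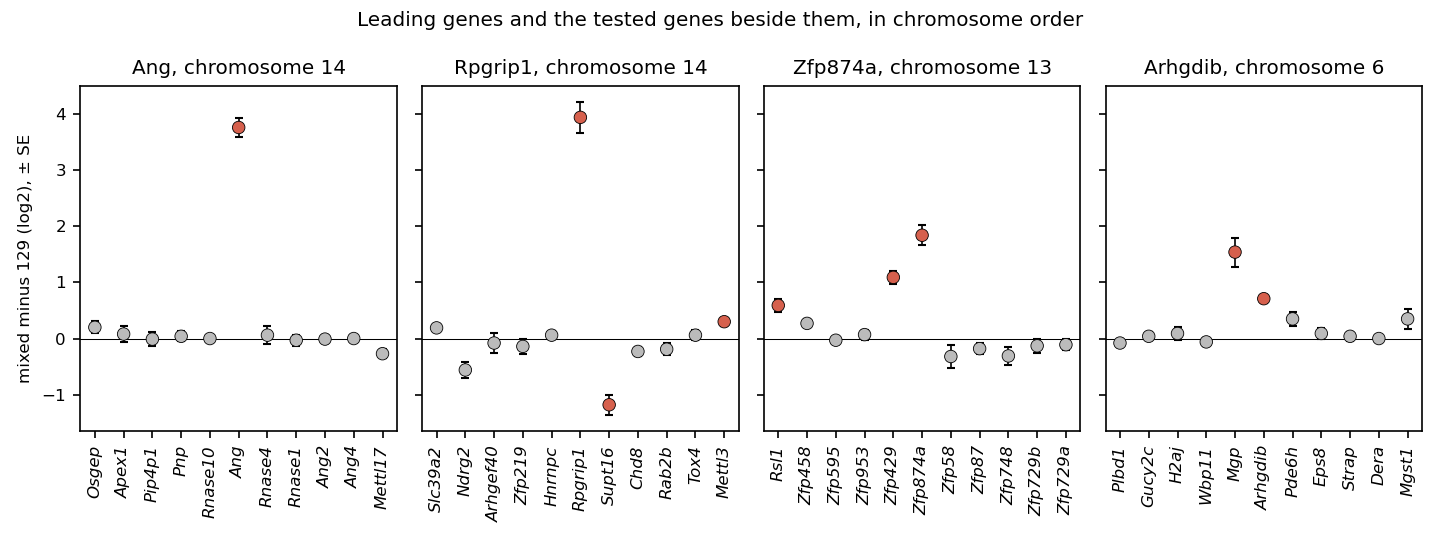
Strain difference (mixed minus 129, log2, with its SE) of Ang, Rpgrip1, Zfp874a and Arhgdib and of the 5 tested genes on either side in chromosome order, red where the adjusted p was under 0.05. Ang stands alone among its neighbours, Rpgrip1 has Supt16 below 0 beside it, Zfp874a has Zfp429 and Arhgdib has Mgp, and Mettl3 and Rsl1 at the ends of their windows are also red.

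The genes whose levels were most like those of the leading genes were found by Pearson correlation of stem-centred values over the 23 arrays. For Ang these were Rpgrip1 (r = 0.95), Arhgdib (0.93) and Prxl2c (0.92). For Rpgrip1 they were Ang, Hivep3 (0.93) and the ribosomal protein gene Rps6 (0.93), whose difference was 0.97 ± 0.16. For Prxl2c they were Zfp874a (0.92), Ang (0.92) and Rpgrip1 (0.90). For Zfp429 they were Zfp874a, Ang and St8sia4, a polysialic acid synthase, at r = 0.91, 0.89 and 0.87. Tceanc2, low in LSL-25,26+Cre 3, was most like Efhd2 (0.96), Abcb10 (0.95) and Zfp593 (0.94), and Gm26782 most like Tgds (0.93), Tceanc2 (0.91) and Slc1a5 (0.90). Except for Ang with Rpgrip1, Zfp429 with Zfp874a, Gm26782 with Tgds, and Tceanc2 with Efhd2 and Zfp593, these genes were on another chromosome than the leading gene or, for Prxl2c with Zfp874a, at separate places on the same one. The leading genes were chosen for their strain difference, and the genes most like them were sought among all genes tested. All of those found were themselves called for strain, so the correlations include the difference between backgrounds.

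Probe sets of one gene did not always share the direction. Of the 333 genes, 175 had another tested probe set, and 252 of these 307 other probe sets had the sign of the first. In 52 genes another probe set passed in the same direction, and in 5 it passed in the opposite one, Prxl2c among them. The probe sequences are not used here, so a strain difference in RNA level and one in how well RNA of each strain binds a probe cannot be told apart.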

How the data were processed

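RNA of 23 fibroblast samples was measured on Affymetrix arrays. The table deposited by the authors gives, for each probe set, a linear RMA intensity (8.55 to 32042.1). RMA is named in the submitters' processing notes, and its version and options are not given in the sources used here. The values were taken to log2.

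Of 45101 probe sets, 64 controls were left out. Of the rest 34945 had 1 gene symbol in the platform annotation, 932 had several and 9160 none listed here, and the last 2 kinds were not used for genes. Each of 18193 genes was represented by its probe set of highest mean. Genes were kept where 3 or more arrays exceeded log2 4.79, the 30th percentile of the table, and genes on chromosomes X and Y in the RefSeq table of GRCm38.p6 were left out, which left 14789. Among them 101 had no chromosome there and stayed in.

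limma 3.58.1 in R 4.3.3 was fitted with the 7 title stems and background as terms (15 residual degrees of freedom), using moderated statistics (two-sided) with p-values adjusted over all genes tested by Benjamini-Hochberg. The p53 difference came from the same model, and its interaction with background from a second fit with an added interaction term. On simulated data for mixed minus 129 over 14789 genes, 70% of changes of 0.5 and 98% of changes of 1 (log2) were recovered, with 10 false among 178 calls. The simulated arrays were drawn independently of each other, while real LSL-WT arrays of one title number deviated together. These rates therefore need not hold for the calls above.

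Residuals of the LSL-WT+Cre and LSL-WT+Emp arrays of one title number correlated at 0.549 to 0.639 in all 3 pairs, so they were also fitted as a random block by duplicateCorrelation (consensus 0.768). The pairing comes from these data and the title number, not from a statement in the labels.

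Genes named in the text are the 12 largest differences each way among genes called, the 6 leading genes not called for p53, up to 3 called genes per list, every tested gene of the list of strain-variable genes, and the 3 genes most like each leading gene. The genes without overlap between backgrounds, Ifit1, the neighbours and the genes of the interaction were added after their values were seen. The comparison, lists and tests were chosen with earlier results of these data known. Alternatives covered the filter, probe sets, scaling, covariates, blocks, weights and leaving out arrays.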

Additional observations from a re-analysis of the deposited data

Results flagged for a closer look

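Within the 9 mixed arrays, the highest or lowest value of 8 among 67 named genes stood apart from the others by Dixon's test at the 95% level. In arrays of 1 kind chance alone does this for about 1 group in 20. The mixed arrays come from several stems and the levels were not adjusted for stem, so this rate need not hold here. Most of the genes were also chosen from these data. E030030I06Rik was at 4.39 in the mixed array of LSL-53,54+Cre with number 2, while the other mixed arrays lay between 6.14 and 7.05 and the 129 arrays between 4.36 and 4.91. Tceanc2 was at 6.78 in LSL-25,26+Cre 3, with the other mixed arrays between 7.63 and 8.28 and the 129 arrays between 6.44 and 7.05. In both genes the single array lay in the 129 range. Olr1 was lowest in LSL-53,54+Cre 3, at 5.11, below all other arrays of both backgrounds.

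LSL-QM+Cre 1 was highest of the mixed arrays for Sfn at 6.42, for Apobec3 at 9.31 and for St8sia4 at 8.30. For Apobec3 this was within the 129 range of 8.60 to 9.38, and for Sfn and St8sia4 it was above the highest 129 arrays, at 5.68 and 7.26. LSL-WT+Emp 3 was highest for Sirpa, at 8.20, and LSL-53,54+Cre 3 for Slc11a1, at 5.49.

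The strain difference differed between wild-type stems and other stems in 5 genes by limma's interaction term. Pdk4, a kinase that turns off pyruvate dehydrogenase, was lower in mixed arrays by -1.88 in the wild-type stems and by -0.08 in the others, an interaction of -1.80 ± 0.28 (adjusted p = 0.0337). Ivl, the cornified envelope protein involucrin, differed by -1.51 and 0.04, an interaction of -1.55 ± 0.26 (adjusted p = 0.0435, limma). For Aif1l, an actin-binding protein, the interaction was -0.80 ± 0.13. For Hoatz it was 0.83 ± 0.12, and for Enpp4, an ectonucleotide hydrolase, 0.78 ± 0.13. The wild-type stems hold 3 mixed and 3 129 arrays.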

How the results depend on the processing

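The count of 333 genes stayed within 1.5 times under no filter, averaging of probe sets, quantile normalization, median centring, no covariate, 5 p53 groups, Xist or proliferation as covariates, a robust prior, X and Y genes kept, and without the Null+Cre or WT+Cre arrays, from 292 to 489. It was 150 among genes above the median level, 521 when all probe sets were tested, 82 without the LSL-WT+Emp arrays and 53 without title number 2. Array weights gave 1706 calls, 60.3% of them higher in mixed arrays against 72.1% before, with a warning that the weights had not converged. Leaving out 1 array gave 102 to 527 calls. Of 53 named genes called, 30 were called in every such fit, Ang, Rpgrip1, Supt16, Zfp429 and Zfp874a among them.

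Arrays of one title number share a number and no stated source: 47 of 55 residual correlations were over 0.1 (median 0.417). With the number as a fixed replicate block 214 genes passed, 122 of them among the 333, and as a random block 384. The fixed block kept 34 of 53 named calls; Mtss1, Fv1, Nid2, Gas5, Wdfy1 and Nlrc5, which held with the LSL-WT pairs, had adjusted p of 0.0583 to 0.119 (limma). The LSL-WT pairs as a replicate block gave 107, and 174 with 5 p53 groups. For the interaction the number as a block gave 2 genes and the LSL-WT pairs gave 675. The p53 count was 3721, 3485 without a strain term and 4873 with the LSL-WT block. The fits with LSL-WT pairs and 5 groups, those of p53 and the interaction with LSL-WT pairs, and the fit without WT+Cre were added after seeing the data.

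Within one title number stem could not be fitted beside background, and 7, 10 and 2 genes passed in numbers 1, 2 and 3. In number 2, with 1 mixed array, Amacr (-0.19), Ankrd33b (-0.40), E030030I06Rik (-0.24), Abcb10 (-0.02), Cap1 (0.20) and Mtss1 (0.15) had the opposite sign. In number 3 so had Ifih1 (-0.29), Pdgfra (-0.27), Cyp51 (-0.08) and Dhcr7 (-0.13). The cause was not tested.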
